A study of Apis mellifera with 6 samples.

Results

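The 12 transfer RNA names described here are the rows of the deposited tables whose gene ID starts with TRNA, 12 of the 10151 genes listed. Poly(A)-selected RNA was sequenced from individual midguts of adult honey bees (Apis mellifera), of which 3 were kept at 35 °C and 3 at 45 °C. All bees came from outbred colonies and no strain is given. According to the paper, the bees of each experiment shared a colony, and the colony of each midgut is not known here. Bees of both groups received sucrose with 0.5% DMSO, the solvent control, and the labels give 4 h for both temperatures. Every 35 °C library, but no 45 °C library, is labelled as a re-analysis of a sample record from another series, and the methods give a longer feeding time for DMSO controls of other datasets. Temperature, series of origin, feeding time and any difference in colony therefore cannot be told apart in any difference given here.

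A transfer RNA carries an amino acid to the ribosome and reads the codon of a messenger RNA through its anticodon. RNA polymerase III transcribes the genes, the ends of the precursor are trimmed, CCA is added at the 3' end, many bases are modified, and an aminoacyl-tRNA synthetase loads the matching amino acid. Mature transfer RNAs carry no poly(A) tail and fold tightly, so a poly(A) library is not built to capture them. Which molecules gave the reads counted on these names (mature transfer RNA, precursors or longer transcripts across the locus) was not measured. The name gives the single-letter amino acid code followed by the anticodon, so TRNAD-GUC reads aspartate codons.

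The 12 names covered 10 amino acids, with a pair of names each for glycine and leucine and a single name each for alanine, arginine, aspartate, glutamine, histidine, lysine, serine and threonine. All 12 were found in a gene table for the assembly Amel_HAv3.1, while the reads had been mapped to Amel 4.5. That table holds 45 transfer RNA names of the nuclear genome for 20 amino acids in 196 copies, and 33 of the 45 names are not listed in the deposited tables. The lowest-ranking gene in the deposited tables had 61 reads in total, so nothing can be said about the names that are not listed. TRNAD-GUC, TRNAT-CGU and TRNAH-GUG had 8, 18 and 13 reads over the 3 libraries at 35 °C and 65, 60 and 54 over those at 45 °C. A name with as few reads at both temperatures as these had at 35 °C would lie below that lowest total, so counts and medians over the 12 describe the listed names and not all transfer RNA names. These names are thus listed through their reads at 45 °C. The same holds for TRNAL-UAG and TRNAL-CAG, with 29 and 28 reads at 35 °C against 48 and 34 at 45 °C. In the other direction, TRNAG-GCC is listed through its reads at 35 °C, 57 against 20 at 45 °C. The fold changes, p-values and counting intervals of all these names take no account of that. The listed names have between 1 and 9 copies each in the gene table, 54 in all. Whether a deposited row sums all copies of a name or holds a single copy is unknown from the sources at hand, and reads of near-identical copies may have been split or left out. Their values are uncertain to that extent.

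All 12 names drew few reads. Values are normalized counts, that is, gene counts divided by 1 size factor per library, and are not scaled by length, so that they rank genes by reads drawn and not by abundance. Transfer RNAs are of similar length among themselves. Means over the 6 libraries ran from 10.6 for TRNAL-CAG to 55.6 for TRNAQ-CUG, against a median of 353 normalized counts over all listed genes. Only 18.8% of genes had a lower mean than TRNAQ-CUG. These values rest on few reads, between 0 and 81 per name and library and between 62 and 339 per name over the 6 libraries. The libraries themselves held 23305758 to 26279130 reads on listed genes at 35 °C and 24690115 to 26921417 at 45 °C. Counting intervals and limits below cover counting error only.

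Of the 12 names, TRNAD-GUC and TRNAT-CGU were higher and TRNAG-CCC was lower in midguts at 45 °C than at 35 °C at the study's cut-off (adjusted p below 0.05 and absolute log2 fold change above 1). Among all genes 13.1% were called higher and 4.94% lower, 18.0% in either direction, and the 3 names called of 12 are to be read against that. The split over all genes depended on the scaling, with 1327 higher and 501 lower here and 850 and 1630 with library size alone. The values at 45 °C lay apart from those at 35 °C for 4 of the 12 names, 2 higher and 2 lower, against 53.2% of all genes, 26.8% higher and 26.4% lower. Of these 4 names, all but TRNAG-CCC are listed through the temperature at which they were higher. The median log2 fold change was 0.22 over the 12 names and -0.01 over all genes. All log2 fold changes here are differences in log2(normalized count + 1) between temperatures, which understates the changes of low names, and the adjusted p comes from limma over all 10151 genes. SE stands for its standard error. In such bulk samples fewer cells of a type and less RNA per cell cannot be told apart.

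**Figure D1:**
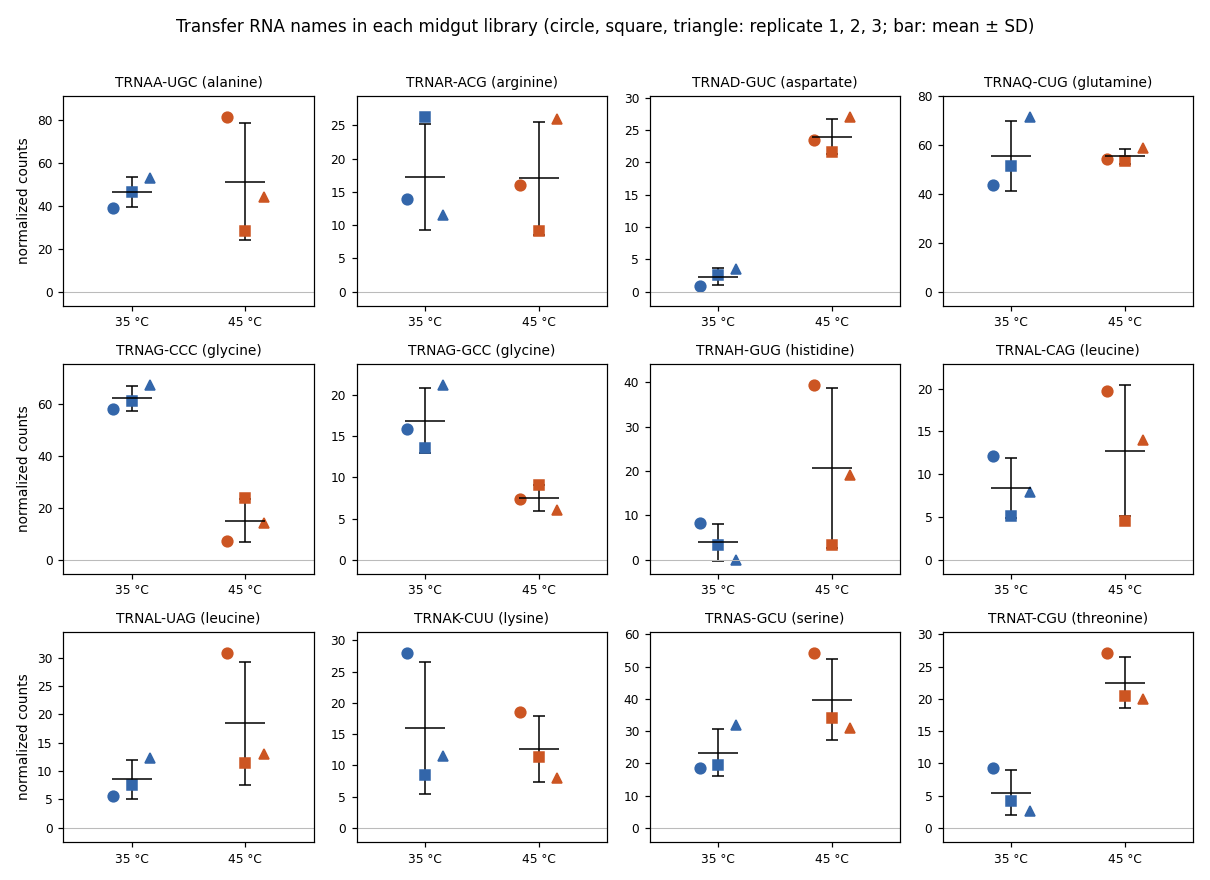
Normalized counts of each transfer RNA name (y axis, 1 panel per name) in the 3 libraries at 35 °C (blue) and the 3 at 45 °C (orange), with the mean and SD as a black bar and the replicate number as the shape of the point. The groups lie apart in the panels of TRNAD-GUC and TRNAT-CGU, higher at 45 °C, and in those of TRNAG-CCC and TRNAG-GCC, lower at 45 °C.

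TRNAD-GUC, which reads the aspartate codons GAC and GAU, had the largest log2 fold change in either direction among the 12 listed names. It is listed through its reads at 45 °C, which neither the p-value nor the counting interval takes into account. At 35 °C the 3 midguts had 0.933, 2.54 and 3.53 normalized counts, and at 45 °C they had 23.4, 21.6 and 27.01. These values rest on 1, 3 and 4 reads at 35 °C and on 19, 19 and 27 reads at 45 °C. The means were 2.33 ± 1.31 and 23.99 ± 2.76 (SD, n = 3 each), so that its log2 fold change came to 2.99 (SE 0.52, limma adjusted p = 0.0043). From the summed reads, 8 against 65, the ratio was 10.2, with a 95% counting interval of 4.89 to 24.7 (exact conditional binomial). With any library left out it stayed past the cut-off, with log2 fold changes from 2.64 to 3.25.

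TRNAT-CGU, which reads the threonine codon ACG, was also higher at 45 °C, and like TRNAD-GUC it is listed through its reads at that temperature. Its values were 9.33, 4.23 and 2.65 normalized counts at 35 °C, against 27.1, 20.4 and 20.01 at 45 °C. The highest value at 35 °C was less than the lowest at 45 °C. The means of 5.40 ± 3.49 and 22.5 ± 3.97 (SD, n = 3 each) gave a log2 fold change of 2.00 (SE 0.52, limma adjusted p = 0.0192). From 18 and 60 summed reads the ratio was 4.19, with a 95% counting interval of 2.44 to 7.55. The call rested on single libraries. Leaving out replicate 2 or 3 of the 35 °C midguts, or replicate 1 of the 45 °C midguts, ended it, with log2 fold changes of 1.92, 1.66 and 1.87 and limma adjusted p of 0.055, 0.0582 and 0.0653. It was also lost after quantile normalization, with 1.44 and an adjusted p of 0.0643.

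TRNAG-CCC, which reads the glycine codon GGG, moved in the opposite direction. It had 57.8, 60.9 and 67.1 normalized counts at 35 °C, against 7.39, 23.9 and 14.0 at 45 °C. The 3 midguts at 35 °C were close to each other, and those at 45 °C were all lower but spread over a wider relative range. The means were 61.9 ± 4.73 and 15.1 ± 8.29 (SD, n = 3 each), so that its log2 fold change came to -2.10 (SE 0.42, limma adjusted p = 0.00739). The summed reads were 210 at 35 °C and 41 at 45 °C, so the level at 35 °C was 4.07 times that at 45 °C, with a 95% counting interval of 2.90 to 5.84. With any library left out the log2 fold change stayed between -2.49 and -1.70 and past the cut-off. TRNAG-CCC had the highest mean of the 12 names at 35 °C and lay below 8 of the others at 45 °C.

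TRNAG-GCC, which reads the glycine codons GGC and GGU, had 15.9, 13.5 and 21.2 normalized counts at 35 °C, against 7.39, 9.09 and 6.002 at 45 °C. Its groups did not overlap, but its log2 fold change of -1.07 (SE 0.43, 95% interval -2.06 to -0.08) did not pass the test, with an adjusted p of 0.0831 from limma. Both listed glycine names had lower values in each midgut at 45 °C, and only TRNAG-CCC passed the test. TRNAG-GCC is listed through its reads at 35 °C, 57 against 20 at 45 °C. Neither its separation nor its p-value under any setting takes that into account. TRNAG-GCC did pass as lower when scaled by library size alone (log2 fold change -1.54), by quantiles (-1.61) and in limma without a trend (-1.07). The first of these scalings moved the median of all genes to -0.39 and the second to -0.15.

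Summed over both glycine names, the values were 73.7, 74.5 and 88.3 normalized counts at 35 °C, against 14.8, 32.9 and 20.01 at 45 °C. Over the listed names, glycine was the amino acid with the highest sum at 35 °C, 78.8 ± 8.22 (SD, n = 3), and lay at 22.6 ± 9.35 (SD, n = 3) at 45 °C. That sum adds 2 names, while 8 of the 10 amino acids have a single listed name. It is also partial, since the glycine name TRNAG-UCC of the gene table is not listed. TRNAG-CCC had 3.65, 4.5 and 3.17 times the value of TRNAG-GCC in 35 °C libraries, against 1, 2.62 and 2.33 times in those at 45 °C. TRNAG-GCC had only 6, 8 and 6 reads in the 45 °C libraries, so these ratios carry a large counting error. Since the values of both names already lay apart between temperatures, a separation of their ratio is not a separate result. As measured, the ratio between the glycine names was lower in each midgut at 45 °C. Its difference between temperatures on the log2 scale was -1.04 (exact two-sided permutation p = 0.1, the smallest that 3 libraries against 3 allow, and 0.2 adjusted over the 2 pairs of names compared).

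**Figure D2:**
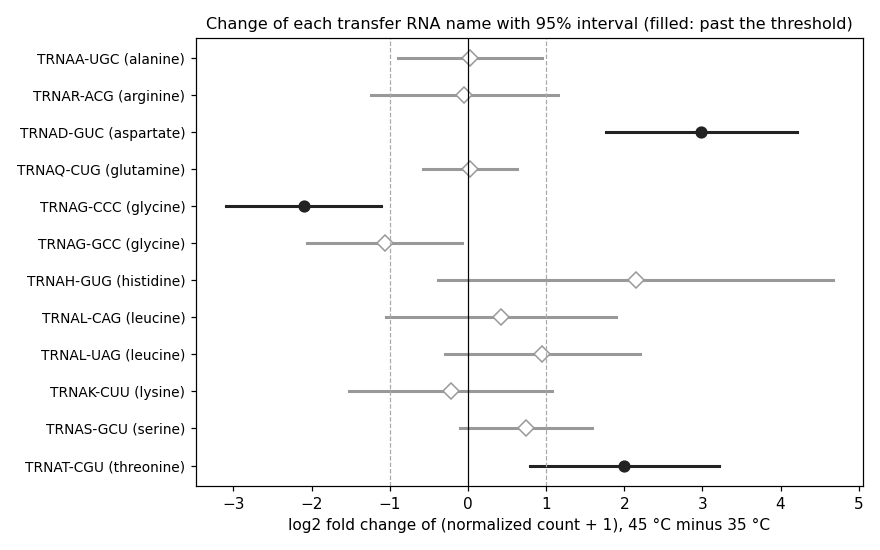
Log2 fold change of each transfer RNA name between 45 °C and 35 °C (x axis) with its 95% interval from limma (line), ordered by amino acid, with filled circles for the 3 names past the cut-off and open diamonds for the 9 others. The dashed lines mark log2 fold changes of -1 and 1, and the intervals of the 9 others range from narrow for TRNAQ-CUG, -0.58 to 0.63, to wide for TRNAH-GUG, -0.38 to 4.67.

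The leucine names, TRNAL-UAG and TRNAL-CAG, did not pass the test, and both are listed through their reads at 45 °C. TRNAL-UAG had 5.60, 7.62 and 12.4 normalized counts at 35 °C, against 30.8, 11.4 and 13.0 at 45 °C, giving as log2 fold change 0.95 (95% interval -0.30 to 2.20, limma adjusted p = 0.196). The highest value belonged to 45 °C replicate 1, and the other midguts at 45 °C lay within or close to the range at 35 °C. TRNAL-CAG, the name with the lowest mean, had 12.1, 5.08 and 7.95 normalized counts at 35 °C, against 19.7, 4.54 and 14.0 at 45 °C. Of its values at 45 °C, 2 lay above and 1 below all those at 35 °C. The log2 fold change, 0.42, did not pass (SE 0.63, 95% interval -1.05 to 1.90, limma adjusted p = 0.625). The ratio between the leucine names did not separate the temperatures (log2 difference 0.53, exact two-sided permutation p = 0.5, adjusted p = 0.5 over the 2 pairs).

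TRNAH-GUG, which reads the histidine codons CAC and CAU, had the widest spread between midguts at 45 °C relative to counting error. It had 8.39, 3.38 and 0 normalized counts at 35 °C, against 39.4, 3.41 and 19.0 at 45 °C. The 0 reads in 35 °C replicate 3 allow up to 3 reads, or 2.65 normalized counts. The value of 45 °C replicate 2 lay among those at 35 °C, and the log2 fold change of 2.14 (SE 1.08, 95% interval -0.38 to 4.67) was close to that of TRNAT-CGU but did not pass the test (limma adjusted p = 0.154). Without 45 °C replicate 1 it was 1.44, without 35 °C replicate 3 it was 1.25 and without 45 °C replicate 2 it was 3.04, and none of these passed the test.

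TRNAS-GCU, which reads the serine codons AGC and AGU, had 18.7, 19.5 and 31.8 normalized counts at 35 °C, against 54.2, 34.1 and 31.0 at 45 °C. The groups overlapped only by 35 °C replicate 3 and 45 °C replicate 3. Its log2 fold change of 0.74 (SE 0.36, 95% interval -0.10 to 1.59) did not pass the test, with an adjusted p of 0.141 from limma.

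The glutamine name TRNAQ-CUG and the alanine name TRNAA-UGC had the highest means over all 6 libraries and did not pass the test. TRNAQ-CUG, which reads the codon CAG, had 43.8, 51.6 and 71.5 normalized counts at 35 °C, against 54.2, 53.4 and 59.0 at 45 °C. All 3 midguts at 45 °C lay inside the range of those at 35 °C. Its log2 fold change of 0.02 had a standard error of 0.26 and a 95% interval of -0.58 to 0.63 (limma adjusted p = 0.952), so a change past the cut-off lay outside the interval in both directions. TRNAA-UGC had 39.2, 46.5 and 53.0 normalized counts at 35 °C, against 81.3, 28.4 and 44.0 at 45 °C. Here the 45 °C libraries held both the highest and the lowest value, and the log2 fold change was 0.03 (SE 0.39, 95% interval -0.89 to 0.94, limma adjusted p = 0.967).

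For TRNAR-ACG, an arginine name whose first anticodon base is converted to inosine in other eukaryotes, the values were 14.0, 26.2 and 11.5 normalized counts at 35 °C, against 16.004, 9.09 and 26.01 at 45 °C. The lysine name TRNAK-CUU, which reads AAG, had 28.0, 8.46 and 11.5 at 35 °C and 18.5, 11.4 and 8.003 at 45 °C. Neither name separated the temperatures. Their log2 fold changes were -0.05 (SE 0.51, 95% interval -1.24 to 1.15, limma adjusted p = 0.955) and -0.22 (SE 0.56, 95% interval -1.52 to 1.08, limma adjusted p = 0.785), so for both names a change past the cut-off in either direction lay inside the interval.

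By amino acid, the summed values at the 2 temperatures lay apart for 3 of 10 amino acids, aspartate and threonine higher and glycine lower at 45 °C, and overlapped for the other 7, beside 53.2% of all genes that lay apart. The ratio of means, 45 °C over 35 °C, was 10.3 for aspartate, 5.25 for histidine, 4.17 for threonine, 1.84 for leucine and 1.71 for serine. It was 1.11 for alanine, 0.998 for glutamine, 0.988 for arginine, 0.789 for lysine and 0.286 for glycine. The names of aspartate, histidine, threonine and leucine are listed through their reads at 45 °C, and TRNAG-GCC through those at 35 °C. The ratios, their order and the separation of the sums take no account of that. The sums cover the listed names only and not all names of an amino acid. The sums of single-name amino acids are the values of that name, and no test was made on the sums.

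All 12 names together had 272, 295 and 333 reads at 35 °C, against 308, 203 and 281 in the midguts at 45 °C. Per 1000000 reads on listed genes this was 11.7, 11.2 and 13.4 at 35 °C and 12.1, 8.22 and 10.4 at 45 °C. The groups overlapped, with means of 12.1 ± 1.16 and 10.3 ± 1.96 (SD, n = 3 each, exact two-sided permutation p = 0.3). The Wilson 95% intervals of the single libraries ran from 10.02 to 14.9 in the same unit at 35 °C and from 7.17 to 13.6 at 45 °C. The direction depended on the scaling, since the summed normalized counts were 266 ± 24.6 at 35 °C, against 297 ± 75.5 in midguts at 45 °C (SD, n = 3 each, exact two-sided permutation p = 0.7). Neither scale separated the temperatures, and the smallest p this design allows is 0.1. The 20 genes with the highest means took 33.9% to 35.9% of the reads at 35 °C and 37.7% to 43.6% at 45 °C, and without them the transfer RNA names had 18.6 ± 1.81 and 17.2 ± 4.16 reads per 1000000 (SD, n = 3 each, exact two-sided permutation p = 0.6).

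The reads on the 12 names were also divided by name, as a description with no test. The shares at the temperatures lay apart for 6 of the 12 names, beside 53.2% of all genes whose values did. Of these 6, TRNAD-GUC, TRNAT-CGU, TRNAL-UAG and TRNAG-GCC are listed through the temperature at which their shares were higher. TRNAG-CCC took 22.8%, 24.4% and 22.8% of the reads on the 12 names in 35 °C libraries, against 1.95%, 10.3% and 4.98% in those at 45 °C. It was the largest or second largest share in each library at 35 °C and below TRNAQ-CUG, TRNAA-UGC and TRNAS-GCU in each at 45 °C. TRNAD-GUC took 0.862 ± 0.438% at 35 °C, against 8.38 ± 1.92% at 45 °C (SD, n = 3 each). TRNAT-CGU took 2.09 ± 1.43% and 7.71 ± 1.00%, and TRNAS-GCU 8.65 ± 1.88% and 13.4 ± 2.04% (SD, n = 3 each). The shares of TRNAG-GCC, 6.29 ± 0.893% and 2.67 ± 1.10%, and of TRNAL-UAG, 3.15 ± 1.00% and 5.89 ± 1.93%, also lay apart between the temperatures (SD, n = 3 each). Shares of a common total are not independent of each other, and TRNAQ-CUG and TRNAA-UGC had 20.8 ± 3.52% against 19.5 ± 4.62% and 17.4 ± 1.70% against 16.5 ± 4.61% (SD, n = 3 each).

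**Figure D3:**
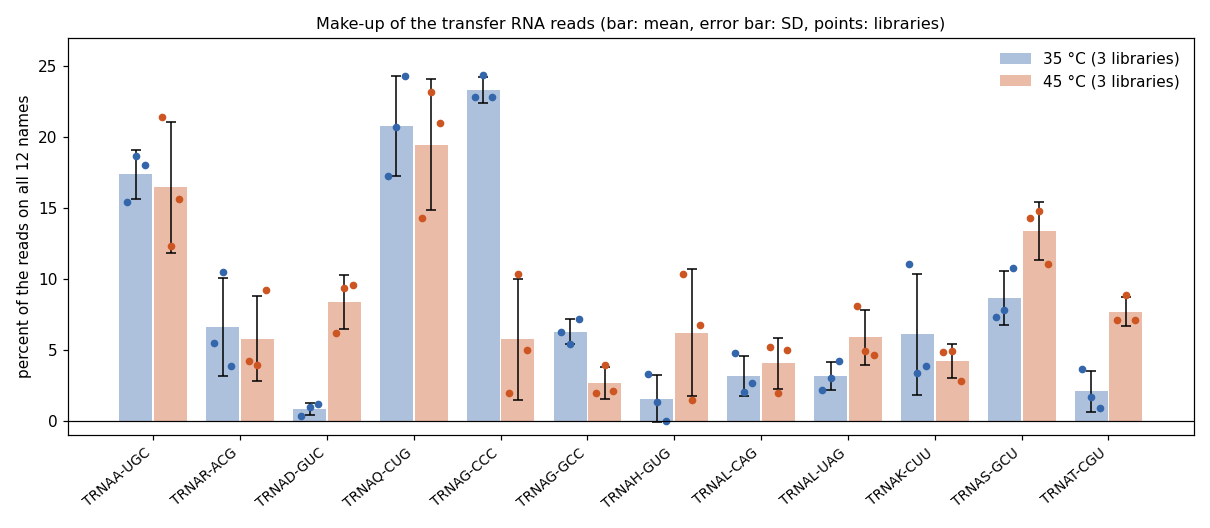
Share of the reads on the 12 transfer RNA names that fell on each name (y axis, percent), with bars for the mean and error bars for the SD of 3 libraries at 35 °C (blue) and 3 at 45 °C (orange) and points for the libraries. TRNAG-CCC had 23.3 ± 0.923% of these reads at 35 °C and 5.76 ± 4.25% at 45 °C, and TRNAD-GUC had 0.862% and 8.38%.

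The midguts differed from each other beyond counting error for several names. The chi-square per degree of freedom of the reads within a temperature, which lies near 1 when counting alone sets the spread, had a median of 2.10 over the names at 35 °C and 3.66 at 45 °C. It was highest for TRNAH-GUG and TRNAA-UGC at 45 °C, with 13.7 and 12.4, and for TRNAK-CUU at 35 °C, with 7.79. For the called names it was 0.400 at 35 °C and 3.84 at 45 °C for TRNAG-CCC, 0.800 and 0.299 for TRNAD-GUC and 2.51 and 0.603 for TRNAT-CGU, so TRNAD-GUC lay below the median at both temperatures and each of the other two at one of them. Where midguts differ, this measure grows with the reads of a name. TRNAD-GUC had 8 reads in all at 35 °C, so its low value there does not show that the midguts were alike. At 45 °C, replicate 1 held the highest value of its temperature for 7 of the 12 names and replicate 2 the lowest for 7. TRNAG-CCC went against this pattern, with its lowest value in replicate 1 and its highest in replicate 2. At 35 °C, replicate 3 was highest for 7 names.

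Going by the Amel_HAv3.1 gene table, 31 of the 54 copies of these names lie inside the span of another gene and 23 between genes. Coordinates are left out because the counts rest on Amel 4.5, and whether the same overlaps hold there was not tested. Strand use in counting is not stated in the labels or methods, so reads of a transfer RNA and of a gene that spans it cannot be told apart. The spanning genes come to 26, of which 19 are listed in the deposited tables, 14 protein coding genes and 5 long non-coding RNA genes. Of these 19, 5 were called higher and 1 lower at 45 °C, with a median log2 fold change of 0.23, beside 13.1% higher and 4.94% lower over all genes. The sources used here give no function for these 19 genes.

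The only copy of TRNAG-CCC lies inside LOC408470, a protein coding gene. LOC408470 had 1484, 1385 and 1833 normalized counts at 35 °C, against 1769, 2268 and 1529 at 45 °C. Its groups overlapped and its log2 fold change was 0.23 (SE 0.18, limma adjusted p = 0.334), while that of TRNAG-CCC was -2.10. The ratio of TRNAG-CCC to LOC408470 was lower in each midgut at 45 °C, and the difference between their log2 fold changes was -2.34. For this and 12 further pairs of the 23 pairs of a name and a listed spanning gene the log2 ratios at the temperatures lay apart, beside 53.2% of all genes whose own values did. In each such pair the values of the name or of the spanning gene already lay apart, and some genes occur in several pairs. The separation of the ratios is therefore not a separate result. For these pairs the exact two-sided permutation p is 0.1, the smallest this design allows, and the adjusted p over the 23 pairs is 0.177.

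Both copies of TRNAT-CGU lie inside protein coding genes, a copy in the overlapping genes LOC724389 and LOC409787 and a copy in LOC100576223. The level of LOC724389 was 47.7 ± 15.5 normalized counts in midguts at 35 °C, against 197 ± 49.8 in those at 45 °C (SD, n = 3 each), so that its log2 fold change came to 2.05 (SE 0.33, limma adjusted p = 0.00285), against 2.00 for TRNAT-CGU. The difference between the pair was -0.05 and their ratio overlapped between temperatures. LOC100576223 had a log2 fold change of 0.59 (limma adjusted p = 0.0374) and LOC409787 one of -0.06 (limma adjusted p = 0.854), and the ratios of TRNAT-CGU to both were higher in each midgut at 45 °C. The log2 fold change of TRNAT-CGU was thus close to that of LOC724389 and above those of the other spanning genes. The part of LOC724389 in the reads of TRNAT-CGU was not tested.

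TRNAD-GUC has 9 copies, 5 of them between genes. Of the listed genes that span the other copies, LOC100576383 had 24.2, 16.1 and 17.7 normalized counts at 35 °C, against 98.5, 34.1 and 94.0 at 45 °C, giving as log2 fold change 1.79 (SE 0.45, limma adjusted p = 0.0172). LOC414025 and LOC107965037 had log2 fold changes of 0.69 and 0.64, with limma adjusted p of 0.00977 and 0.0348, short of the fold change in the cut-off. The log2 fold change of TRNAD-GUC was larger than theirs by 1.20, 2.29 and 2.35, and each of the 3 ratios lay apart between temperatures. LOC100576383 also spans 1 copy each of TRNAG-GCC and TRNAR-ACG. Their log2 fold changes were -1.07 and -0.05 and neither passed the test. The part of the spanning genes in the reads of TRNAD-GUC was not tested.

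**Figure D4:**
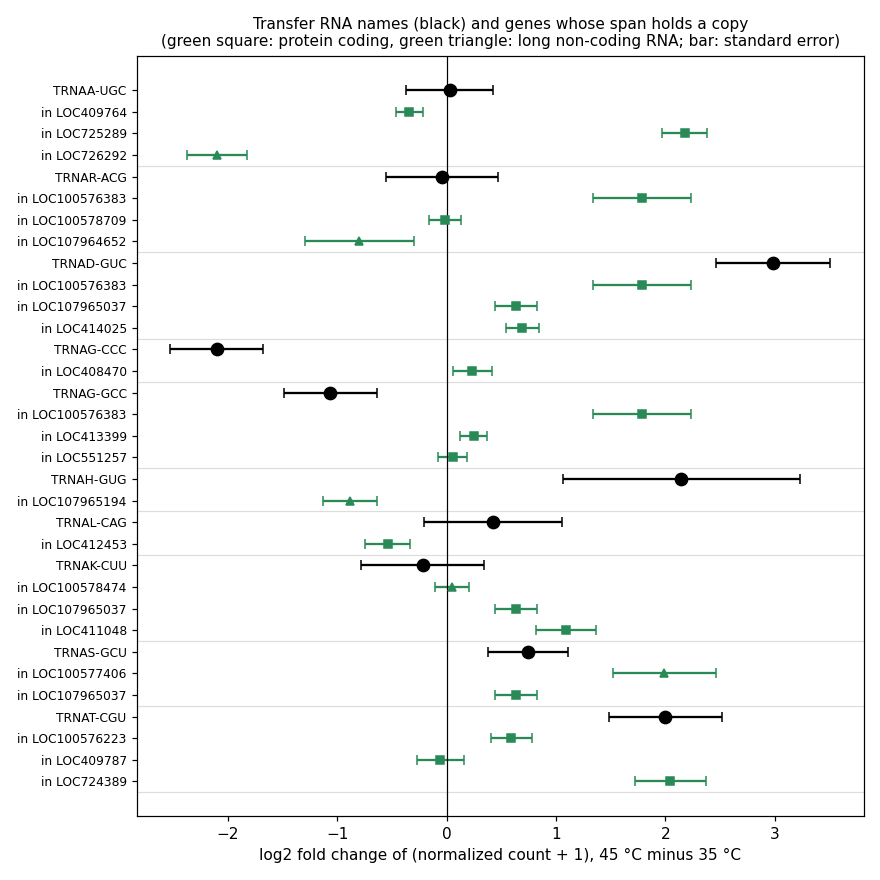
Log2 fold change between 45 °C and 35 °C (x axis) of the 10 transfer RNA names with a listed spanning gene (black circles) and, below each, of the genes whose span holds a copy in the Amel_HAv3.1 gene table (green squares for protein coding genes, triangles for long non-coding RNA genes), with standard errors from limma. TRNAT-CGU lies beside LOC724389, and TRNAG-CCC, at -2.10, lies away from LOC408470, at 0.23.

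For the names that did not pass the test, the spanning genes moved in both directions. TRNAA-UGC, at 0.03, has a copy inside LOC725289, which was called higher, from 4005 ± 1046 normalized counts to 17777 ± 2083 (SD, n = 3 each, log2 fold change 2.18, limma adjusted p = 3.53e-04). It also has a copy inside the long non-coding RNA gene LOC726292, which fell from 22802 ± 4754 to 5432 ± 1804 (SD, n = 3 each, log2 fold change -2.10, limma adjusted p = 0.00123). The log2 fold change of TRNAA-UGC lay between those of these genes, and 2 of its 4 copies lie inside another gene. TRNAS-GCU, at 0.74, has a copy inside the long non-coding RNA gene LOC100577406, which was called higher with a log2 fold change of 1.99 (limma adjusted p = 0.0137), and TRNAK-CUU, at -0.22, has 2 copies inside LOC411048, called higher with 1.09 (limma adjusted p = 0.0172). The spanning long non-coding RNA gene of TRNAH-GUG, LOC107965194, had a log2 fold change of -0.89 (limma adjusted p = 0.0245) against 2.14 for TRNAH-GUG. The part of the spanning genes in the reads of these names was not tested.

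TRNAL-UAG has a single copy between genes and neighbours a copy of TRNAA-UGC on one side and of TRNAQ-CUG on the other. Their log2 fold changes were 0.95, 0.03 and 0.02, and none of the 3 passed the test. TRNAQ-CUG is the other name without a listed spanning gene.

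Other short or non-coding RNA genes in the same poly(A) libraries are given side by side, with no test of a difference from the transfer RNA names. The microRNA class held 36 names, while 37 listed symbols start with Mir. Of these 36 names, 15 were called higher, with a median log2 fold change of 0.93, and of 771 long non-coding RNA genes 138 were called higher and 48 lower, with a median of 0.15, beside 13.1% of all genes called higher and 4.94% lower. The transfer RNA names, with 2 higher and 1 lower and a median of 0.22, drew the fewest reads of the 3 classes, with a median over names of 14.1 normalized counts against 31.3 and 43.7. The classes differ in reads per gene, so the counts do not compare them at equal depth.

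Marker genes could be checked only by symbol. The alpha-glucosidase genes, whose enzymes split sucrose (3 of 4 listed) summed to at least 1029250 normalized counts in each library. Troponin genes of muscle (7 of 7 listed) summed to 4676 to 7647 at 35 °C and 5869 to 7069 at 45 °C, with 2 called lower, and synaptotagmin genes of neurons (2 of 2 listed) to 160 to 210 and 169 to 193. The vitellogenin and hexamerin genes of the fat body (5 of 5 listed) summed to 643 to 834 at 35 °C and 923 to 1405 at 45 °C, with 2 called higher, and royal jelly protein genes of the hypopharyngeal gland (3 of 9 listed) to 1426 to 2712 and 1293 to 2199. Among all genes 13.1% were called higher and 4.94% lower, and the calls over these few markers are to be read against that. No listed marker was at 0 in any library. The part of RNA from fat body, muscle or any other tissue in the transfer RNA differences was not tested.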

How the data were processed

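The labels give RNA-seq of poly(A)-selected midgut RNA, 3 libraries per temperature, prepared with a NEBNext Ultra kit and sequenced on an Illumina HiSeq. Reads were quality trimmed, aligned to Amel 4.5 and counted per gene by the authors. The submitters' processing notes name Trimmomatic 0.36, STAR, Subread and DESeq2. The deposited signal values are gene counts divided by 1 size factor per library, replicates kept apart, in 3 tables. Dividing by each column's smallest step returned the reads, 100% of values being within 0.01 of a whole number.

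The main test was that of limma 3.58.1 (R 4.3.3, variance trend, no block) after adding 1 and taking log2, Benjamini-Hochberg adjusted over all 10151 genes with a mean of at least 1, a filter that removed none. Tests were tried on simulated data first. DESeq2 1.42.0 and edgeR 4.0.16 on the recovered reads, other scalings, pseudocounts of 0.1 and 10, filters and left-out libraries were alternatives. Replicates of a temperature differed by more than sampling noise, with a mean chi-square per gene of at least 44.4. Each library came from 1 midgut, so p-values measure the spread between these midguts. No column was left unmatched to a sample.

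The members and lists were chosen with earlier results of these data known. All 12 names are reported, with full statistics for those past the cut-off, the 5 with the highest and the 3 with the lowest means. Aminoacyl-tRNA synthetases, RNA polymerase III and transfer RNA processing genes had been planned but were not analysed here, since the gene table holds no names for them. Markers were matched by symbol after the tables had been seen. No sequence was used.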

Additional observations from a re-analysis of the deposited data

How the results depend on the processing

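TRNAD-GUC and TRNAG-CCC stayed past the cut-off under all 18 alternatives that kept the 12 names, with log2 fold changes of 1.47 to 3.48 and -2.49 to -1.57. The mean of at least 100 removed all 12 names and gave no value for them. No filter and a mean of at least 5 removed no gene, and no minimum fold change left the fit as it was. These alternatives repeat the main fit, so they could not end a call. The number of names called higher, 2, was 1 after quantile normalization and 1 to 2 with a library left out. The number called lower, 1, was 2 with library size alone, quantile normalization and limma without trend, and 1 to 1 with a library left out. The causes were not tested.

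Names that did not pass changed sign under some settings. TRNAQ-CUG, at 0.02, gave -0.00307 with DESeq2, -0.00375 with TMM, -0.00317 with relative log expression, -0.38 with library size alone and -0.25 with quantile normalization. TRNAA-UGC, at 0.03, gave -0.27 and -0.25 under these last scalings, and TRNAL-CAG, at 0.42, gave -0.15 with the quantile scaling. With a library left out, TRNAQ-CUG ran from -0.13 to 0.22, TRNAK-CUU from -0.56 to 0.25, TRNAA-UGC from -0.37 to 0.38 and TRNAR-ACG from -0.39 to 0.32. Of 216 single values, which include those of the alternatives that repeat the main fit, 17 changed sign, none of them past the cut-off. The cut-off was lost by 4, all of TRNAT-CGU, and reached by 3, all of TRNAG-GCC.

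Over all genes, 1327 were higher and 501 lower. With library size alone the numbers were 850 and 1630, for the quantile scaling 1080 and 804, with no minimum fold change 2143 and 1844, and for a mean of at least 100 they were 872 and 359. A library left out gave 1177 to 1309 higher and 382 to 545 lower. The difference between temperatures in reads on the names, -1.84 per 1000000 reads with all libraries, then ran from -2.78 to -0.825. The replicate number as a block changed no call on the 12 names, leaving 2 higher and 1 lower, and gave 1348 genes higher and 524 lower. Deviations of same-numbered libraries correlated at 0.154, 0.0164 and 0.00538, and 2 of the 3 libraries at 35 °C correlated best with another number, so the numbers were not taken as pairs. With 3 midguts per temperature and few reads per name, most intervals still held changes past the cut-off.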
